A study of Mus musculus with 36 samples.

Results

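Outer promoter bins were defined as the H3K9me3 bins on the 19 autosomes that the authors' annotation placed in a promoter and whose distance from the nearest annotated transcription start site (TSS) was above 1000 and up to 3000 bp. A bin is a piece of at most 501 bp of an H3K9me3 peak. The rule uses position only and no signal. The 6 deposited tables held 786789 bin rows, of which 55278 were outer promoter bins at 32450 distinct coordinates. The CF table of both ages held 8179 of 120683 bins, the CM table of both ages 10826 of 148133, the female table at 3 weeks 10054 of 140214, the female table at 8 weeks 7274 of 116257, the male table at 3 weeks 12121 of 159357 and the male table at 8 weeks 6824 of 102145. Another 617 rows at the same distances on the X and Y chromosomes were left out by the rule.

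The mark was profiled by chromatin immunoprecipitation and sequencing (ChIP-seq) in livers of mouse offspring. All mice were floxed littermates on a C57BL/6J background, Reg3g fl/+ or Reg3g fl/fl, in every group. CF and CM were the female and male offspring of dams on a control diet. MF and MM were the female and male offspring of dams with maternal obesity (MO), which had received a Western-style diet before and during pregnancy and in lactation. Livers were taken at 3 weeks, before weaning, or at 8 weeks, after the offspring of both kinds of dam had eaten chow. There were 8 groups of 4 ChIP libraries, 32 in all, and 4 input libraries from the control groups. Each table covers 2 groups, so that a pooled value rests on 8 libraries: CF at both ages, CM at both ages, CF with MF at each age, and CM with MM at each age. The tables hold no value per library, so the spread between animals is unknown here, no test between groups was made, and the values below are pooled averages over the 2 groups of a table. Whole liver holds several cell types, and a weaker mark per cell and fewer cells that carry it cannot be told apart.

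Trimethylation of lysine 9 of histone H3 is laid down by methyltransferases such as SETDB1 and SUV39H1, is bound by heterochromatin protein 1, and marks silent heterochromatin, repeats and gene families that a tissue does not use. KRAB zinc finger proteins guide SETDB1 to many of these sites through the corepressor TRIM28. A promoter is usually described by the short stretch around the start site, where CpG islands lie. The flanks 1 to 3 kb away lie mostly in first introns or in upstream sequence and can hold repeats, alternative exons or enhancers.

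The sequences of 4 strong bins are shown as examples, from genes whose strongest outer promoter bins ranked high over the 6 tables. They belong to the genes highest in the ranking over the 6 tables (given below) whose strongest bin in the CF table lay upstream and touched no annotated exon. The Lipo3 bin overlapped an exon of a microRNA gene by GENCODE M21 and is therefore not among them. The Tcf4 bin met the same terms, but its sequence is not shown here. Tcf4 was above Serpina3j by the mean percentile over the 6 tables (98.6 and 98.5), though not in the CF table (97.6 and 98.2). Of the bases of the Tcf4 bin in the CF table, 8.98% were masked. Each is the central 300 bases of the bin in GRCm38, read 5′ to 3′ on the + strand, which is also the strand of each gene, with CpG dinucleotides in capitals. They lie at chr7:41645347-41645646 (Zfp788), chr11:9189520-9189819 (Abca13), chr8:21132579-21132878 (Defa30) and chr12:104311213-104311512 (Serpina3j). By GENCODE M21 the Zfp788 stretch lies in an intron and the others lie outside genes.
Zfp788: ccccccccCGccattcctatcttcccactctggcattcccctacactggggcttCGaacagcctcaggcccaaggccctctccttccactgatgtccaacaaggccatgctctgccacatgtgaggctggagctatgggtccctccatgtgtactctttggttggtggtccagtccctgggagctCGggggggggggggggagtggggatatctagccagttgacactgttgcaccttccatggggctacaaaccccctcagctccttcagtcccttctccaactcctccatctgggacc
Abca13: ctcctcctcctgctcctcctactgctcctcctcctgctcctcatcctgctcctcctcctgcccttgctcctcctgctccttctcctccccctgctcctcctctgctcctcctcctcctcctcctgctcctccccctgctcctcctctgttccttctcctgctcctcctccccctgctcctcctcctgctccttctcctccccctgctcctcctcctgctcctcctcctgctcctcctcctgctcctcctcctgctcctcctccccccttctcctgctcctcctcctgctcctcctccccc
Defa30: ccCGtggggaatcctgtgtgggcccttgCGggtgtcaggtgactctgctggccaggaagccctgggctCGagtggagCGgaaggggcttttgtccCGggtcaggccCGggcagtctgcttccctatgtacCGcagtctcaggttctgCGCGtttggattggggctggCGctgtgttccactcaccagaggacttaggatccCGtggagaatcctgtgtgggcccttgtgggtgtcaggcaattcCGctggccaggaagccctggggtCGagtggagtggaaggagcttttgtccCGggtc
Serpina3j: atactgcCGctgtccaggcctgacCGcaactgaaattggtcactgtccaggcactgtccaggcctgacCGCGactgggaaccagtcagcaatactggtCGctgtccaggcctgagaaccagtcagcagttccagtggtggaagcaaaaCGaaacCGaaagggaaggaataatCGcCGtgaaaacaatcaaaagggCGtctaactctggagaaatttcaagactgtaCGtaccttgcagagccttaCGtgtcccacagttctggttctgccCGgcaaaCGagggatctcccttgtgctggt
The 4 shown were mostly repeat sequence, as shown by the soft-masked (lower-case) bases of the reference. They do not stand for all strong bins, since the 42 outer promoter bins above percentile 99 of the CF table had a median masked share of 7.09%. The masked share was 89.7% in the Zfp788 stretch, 100% in those of Abca13 and Defa30, and 78.7% in that of Serpina3j. CpG content differed widely between them. The Abca13 stretch, a run of short pyrimidine-rich units with a GC content of 66.3%, had 0 CpGs, and that of Zfp788 had 3. The Defa30 and Serpina3j stretches had 14 each. The motif TGCCGC, searched on both strands, was present in the Serpina3j stretch and in none of the other 3.

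Signal in outer promoter bins lay slightly below the middle of the listed bins. It is given as the authors' average log2 CPM (read counts scaled to the library total) over both groups of a table, and as its percentile among all autosomal bins of the same table, because the tables were scaled separately. The median outer promoter bin had 2.59 log2 CPM in the CF table (quartiles 2.45 and 2.76) and 2.05 in the CM table (quartiles 1.88 and 2.26). In the female tables the median was 2.37 at 3 weeks and 2.55 at 8 weeks, and in the male tables it was 2.00 at 3 weeks and 2.68 at 8 weeks. As percentiles these medians were 41.9 in the CF table, 43.7 in the CM table, 44.1 and 40.6 in females at 3 and 8 weeks, and 45.0 and 41.4 in males at 3 and 8 weeks. Of outer promoter bins, 41.2% were above the median of all autosomal bins in the CF table and 43.0% were in the CM table. The median depended on which bins were taken. For bins at the same coordinates in all 3 tables of a sex the medians were 59.7 and 68.6 in the CF and CM tables. They were 65.7 and 50.98 in females at 3 and 8 weeks, and 69.0 and 46.2 in males at 3 and 8 weeks. Bins of other places listed at the same coordinates at both ages were also high at 3 weeks. Inner promoter, gene body and intergenic medians were 64.5, 62.3 and 69.3 in females and 64.2, 68.1 and 74.2 in males. The filtered medians therefore do not set outer promoter bins against other bins. For peaks of 1 bin the outer promoter median in females at 3 weeks was 51.2.

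Inner promoter bins, up to 1000 bp from the start site, had higher medians. Their percentiles were 57.8 and 60.0 in the CF and CM tables, 52.2 and 56.8 in females at 3 and 8 weeks, and 51.4 and 59.0 in males at 3 and 8 weeks. The outer median was below the inner median on each of the 19 autosomes in all 6 tables, and below the intergenic median likewise. Against gene bodies the difference was small: their medians lay between 44.3 and 47.1, and the outer median was the lower one on 13 to 17 of the 19 autosomes. The standard deviation of the outer median over autosomes was 2.58 to 4.17 percentile points. Chromosomes are parts of the same libraries and not replicates, so these counts describe the genome and carry no test. Among bins at the same coordinates at both ages, the order of outer and inner bins turned in males at 3 weeks, with medians of 66.6 and 64.2. It held in males at 8 weeks (45.0 and 67.0), and in females at 3 weeks (61.7 and 64.5) and 8 weeks (48.0 and 67.8).

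**Figure D1:**
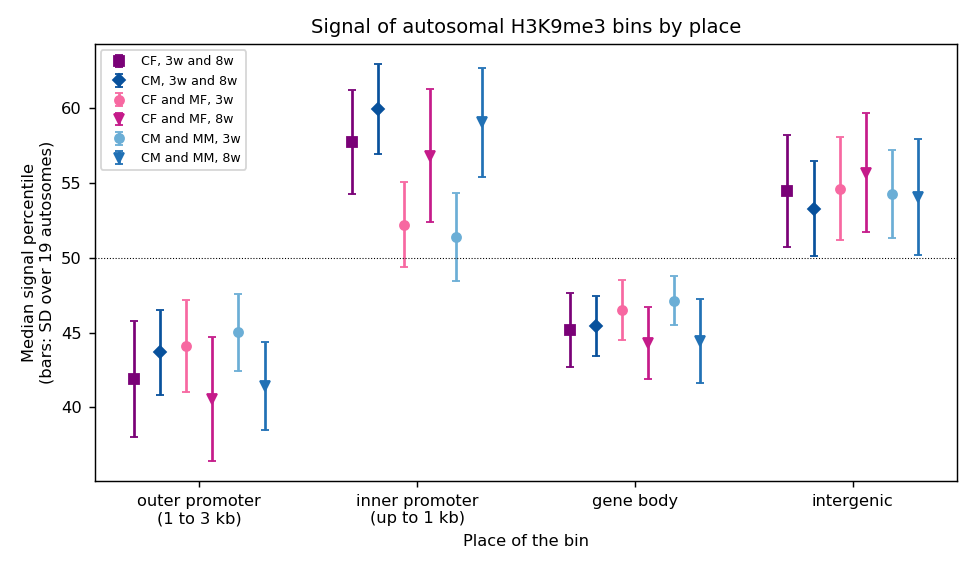
Median signal percentile (vertical axis, among autosomal bins of the same table) of bins in 4 places (horizontal axis); each symbol is 1 of the 6 tables and bars are the SD of the median over 19 autosomes. Outer promoter bins sat at 40.6 to 45.0, below inner promoter bins at 51.4 to 60.0.

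The change of signal with distance lay within the first 500 bp. Bins that covered the start site had median percentiles of 56.4 to 67.2, and bins starting 1 to 500 bp downstream 53.5 to 61.9. From 501 bp downstream outward, and on the whole upstream side, all medians in steps of 500 bp were between 36.4 and 46.4. Within the outer promoter they ranged from 38.3 to 46.4, with no common trend: the median of bins beyond 2000 bp was within 3.10 percentile points of that of bins up to 2000 bp on either side of the start site in each table. At the limits of the rule, bins 1001 to 1100 bp away had medians of 41.1 to 46.5 and bins 901 to 1000 bp away 37.6 to 44.5. Bins 2901 to 3000 bp away had medians of 40.1 to 45.6, and bins 3001 to 3100 bp away 36.3 to 46.8. The signal thus showed no step at either limit that was shared by the 6 tables.

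**Figure D2:**
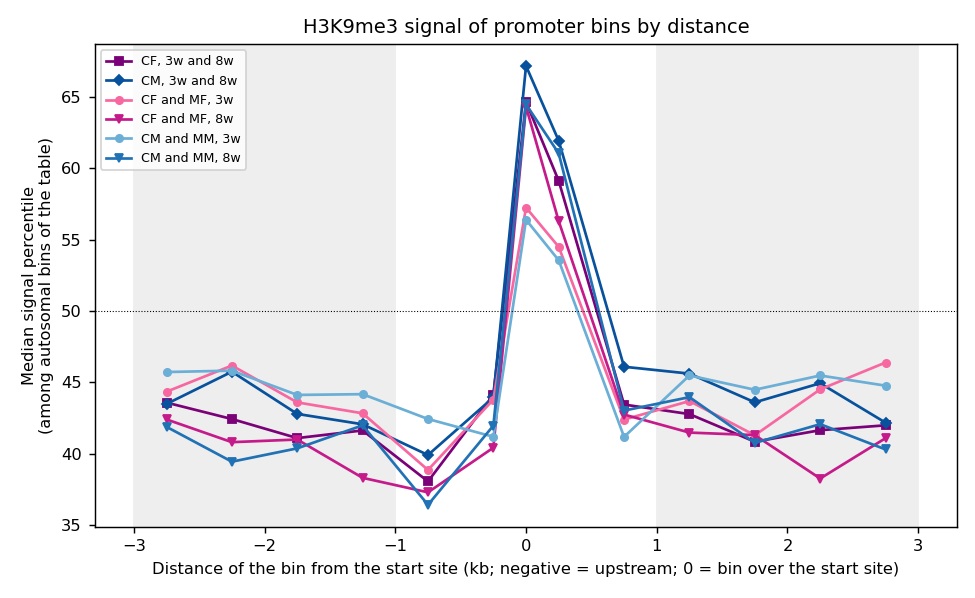
Median signal percentile (vertical axis) of promoter bins by distance from the start site (horizontal axis, kb, in steps of 500 bp; 0 is a bin over the start site); each line is 1 table and grey marks the outer promoter. Medians peaked over the start site at 56.4 to 67.2 and stayed between 38.3 and 46.4 in the grey zones.

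Upstream and downstream flanks were near equal in number and signal. Upstream bins made up 45.9% (95% Wilson interval 44.8 to 47.0, counting error only) of outer promoter bins in the CF table and 47.0% (46.0 to 47.9) in the CM table, and 44.6 to 46.8% in the other 4. Leaving out bins over the start site, which have no side, inner promoter bins were upstream in 28.9 to 33.4%. Median percentiles were 42.2 upstream and 41.8 downstream in the CF table and 43.4 and 44.0 in the CM table. In the CF table, downstream bins from 1 to 2 kb came from longer peaks (median 1728 bp) than upstream bins at that distance (1125 bp).

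Outer promoter bins made up 7.15% of the autosomal bins in the CF table (Wilson interval 7.01 to 7.31), 7.35% in the CM table (7.21 to 7.48), 7.52 and 6.64% in females at 3 and 8 weeks, and 7.63 and 6.73% in males at 3 and 8 weeks. The share varied more between chromosomes than between tables: it was lowest on chromosome 13, at 4.12 to 5.15%, and highest on chromosome 7, at 8.77 to 9.93%, in all 6 tables. The density of bins was compared with the sequence open to each zone, taken as bases of autosomes by distance to the nearest GENCODE M21 transcript start (an annotation that differs from the one the authors used) and with bins placed by their midpoint. Bases 1 to 3 kb from a start covered 9.73% of the autosomes, and bases up to 1 kb 6.28%. The outer zone held 43.6 to 75.8 bins per Mb, the inner zone 132 to 158, and the rest of the autosomes 35.5 to 58.3. The outer density was 1.21 to 1.30 times that of the rest, and the inner density 2.72 to 3.72 times.

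By the same annotation most outer promoter bins had their midpoint in an intron, from 53.6% in males at 8 weeks to 59.6% in males at 3 weeks. Coding exons held 13.0 to 20.1%, sequence outside genes 15.7 to 18.1%, untranslated regions 4.55 to 5.50% and other exons 4.79 to 5.16%. Signal was highest over coding exons. The median percentile of coding exon bins was 53.7 in the CF table, 60.4 in the CM table and 50.9 to 55.5 in the other 4, whereas that of intron bins was 38.6 in the CF table, 39.7 in the CM table and 37.0 to 42.5 in the other 4. The coding exon median was the higher one on 17 to 19 of the 19 autosomes. Coding exon bins also had more CpGs, with a median CpG observed-to-expected ratio of 0.331 to 0.364 against 0.233 to 0.262 in introns, and the part of base composition in this difference was not tested.

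Base composition differed between the outer and the inner promoter. The median GC content was 54.6% in outer and 60.1% in inner bins of the CF table, and 53.9 and 58.7% in the CM table. The median CpG ratio was 0.263 in outer and 0.546 in inner bins of the CF table, and 0.252 and 0.500 in the CM table. On this measure outer promoter bins were like gene body bins, at 0.265 and 0.256. Among full-length bins, TGCCGC was present on either strand in 13.4% of outer, 27.9% of inner and 15.3% of all autosomal bins of the CF table. The E-box CACGTG was present in 10.9, 10.7 and 10.1% of the same bins. Presence of these letters is a description and not a site of a factor. Across outer promoter bins, Spearman's rho between GC content and signal was 0.21 to 0.38 in the 6 tables. Bins share libraries, and sequencing itself depends on GC content, so this is given with no test.

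Repeats were sparse in outer promoter bins, and masked share and signal were hardly related across them (Spearman's rho between -0.06 and 0.01 in the 6 tables). The median soft-masked share was 8.78% in the CF table and 9.41% in the CM table. Gene body bins were close to this, at 9.93 and 10.2%, and all autosomal bins had 11.9 and 12.2%. Intergenic bins had 29.5 and 26.3%, and inner promoter bins 4.79 and 4.90%. Bins masked over more than 90% of their length were 1.69 to 2.06% of outer promoter bins. Their median percentile was 67.6 in the CF table, 57.7 in the CM table, 63.9 and 66.9 in females at 3 and 8 weeks, and 53.6 and 66.7 in males at 3 and 8 weeks. Bins with 0 masked bases had medians of 41.1 to 45.2. The bins above percentile 99 differed between tables in the median masked share, which was 7.09% in the CF table, 2.23% in the CM table and 4.39% in males at 8 weeks, below the median of all outer promoter bins, and 13.4% in females at 8 weeks, 53.3% in females at 3 weeks and 46.8% in males at 3 weeks, above it. Reads from repeats can be placed at more than 1 copy, and how the authors' counting treated them is not given in the sources used here, so signal in bins of this kind is uncertain.

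The peak behind an outer promoter bin often reached nearer to the gene than the bin. Each table lists 1 bin per peak, and which bin is listed differs between tables. Of the 8179 such peaks of CF offspring, 1810 (22.1%) covered the start site, and 2513 (30.7%) came within 1000 bp of it. In CM offspring these were 1982 (18.3%) and 2808 (25.9%) of 10826. Bins of peaks that reached within 1000 bp had lower medians, 36.8 against 44.2 in the CF table and 41.3 against 44.6 in the CM table. The outer bins listed for long peaks ranked lower. Those of peaks over 5000 bp had median percentiles of 30.5 to 40.2, and those of peaks of 502 to 1000 bp 45.4 to 52.8. The other bins of a long peak are not listed, so this holds for the listed bin only.

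The 55278 rows named 11015 genes by symbol, and 42 rows had none. Of these genes 2398 (21.8%) had an outer promoter bin in all 6 tables, and 1645 (14.9%) in 1 table. A table held 5344 to 7966 such genes, 67.2 to 79.1% of them with 1 bin. In 62.2 to 69.9% of them an inner promoter bin was listed in the same table as well. In females 8581 genes were named and in males 9355, and the 6921 in common were 80.7% of the female and 74.0% of the male genes. Such gene shares are not given here for genes with any bin, so they are not read as particular to outer promoter bins. Between sexes the peaks were merged separately and coordinates rarely matched. Counting an overlap of at least 50% of the shorter peak, 80.9% of the peaks behind outer promoter bins in the CF table overlapped a CM peak, and 64.1% of those in the CM table overlapped a CF peak. For all autosomal bins the shares were close to these, at 80.0 and 63.7%. At 8 weeks, where the female table was the longer one, the order turned, with 70.4% of the female and 75.9% of the male outer promoter peaks overlapped (all autosomal bins 69.7 and 75.7%).

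Genes with the most distinct outer promoter bins had several annotated start sites. Tiam1, an activator of the GTPase Rac, had 24 bins by coordinates over the 6 tables, assigned to 11 transcripts. Mical3, Sardh and Tns1 had 23 each, assigned to 12, 8 and 12 transcripts, and Eya2 had 22 from 6. Sardh encodes the mitochondrial sarcosine dehydrogenase, an enzyme of liver one-carbon metabolism, and Tns1 encodes tensin, which links actin to focal adhesions. Female and male bins of 1 peak are counted apart here because their edges differ. The strongest Tiam1 bin ranked at percentile 97.9 in the CF and 86.6 in the CM table, and between 71.9 and 99.4 in the other 4. That of Sardh ranked at 57.0 and 72.1 in the CF and CM tables, and between 43.6 and 91.6 in the other 4. For both genes the bins of the CF and CM tables were different bins, assigned to different transcripts.

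The genes highest in the scale were found by the mean percentile of their strongest outer promoter bin among the 2398 genes present in all 6 tables, with clone and predicted genes left out. They were chosen by these values, which are therefore a description. Or8g32, an olfactory receptor gene, was first, with 3.65 log2 CPM in the CF, 3.37 in the CM, 3.38 and 3.78 in the female 3- and 8-week, and 2.92 and 3.91 in the male 3- and 8-week tables. Its bin lay 2229 bp downstream of the start site in the CF table, at chr9:39396022-39396498, and ranked between percentiles 98.8 and 99.8. Lipo3, a member of a lipase family, followed with 3.45, 3.33, 3.26, 3.94, 2.88 and 4.27 log2 CPM in the same order, from a bin 2040 bp upstream in the CF table. Both genes kept a bin at nearly the same place in females and males, and their levels were above the median of outer promoter bins in every table.

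Several of the 15 were olfactory receptor, zinc finger, protocadherin, defensin or proline-rich protein genes. Besides Or8g32, the olfactory receptor genes Or12j4 and Or6d12 had mean percentiles of 98.8 and 98.3. Zfp788 and Zfp329, both zinc finger genes, had 98.9 and 98.6, and Pcdhb20, a clustered protocadherin of neuronal cell contacts, 99.2. Defa30, an alpha-defensin made in the gut, had 98.8, and Prb1c, a proline-rich protein of saliva, 98.4.

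The remaining genes have other roles. Serpina3j, a serpin protease inhibitor, had a mean percentile of 98.5, and Abca13, an ATP-binding cassette transporter, 98.9. Tcf4, a basic helix-loop-helix transcription factor, had 98.6, Lipt1, which transfers lipoyl groups to mitochondrial enzymes, 98.6, Fam111a, a protease that acts at replication forks, 98.6, and Ccdc7b, a coiled-coil gene, 98.6. The Lipt1 bin was unlike most others, since it lay in a coding exon and had 0% masked bases in the CF table. More than 50% of the bases were masked in the bins of 9 or 10 of the 15 genes, depending on the table, while 9.26 to 10.7% of all outer promoter bins reached that share. The outer promoter bins above percentile 99 of single tables did not share this, with median masked shares from 2.23 to 53.3%. The peaks were short: 11 or 12 of the 15 were at most 1000 bp long. With predicted genes allowed, Gm1979 (mean percentile 99.8) and Gm6639 (99.7) preceded Or8g32.

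**Figure D3:**
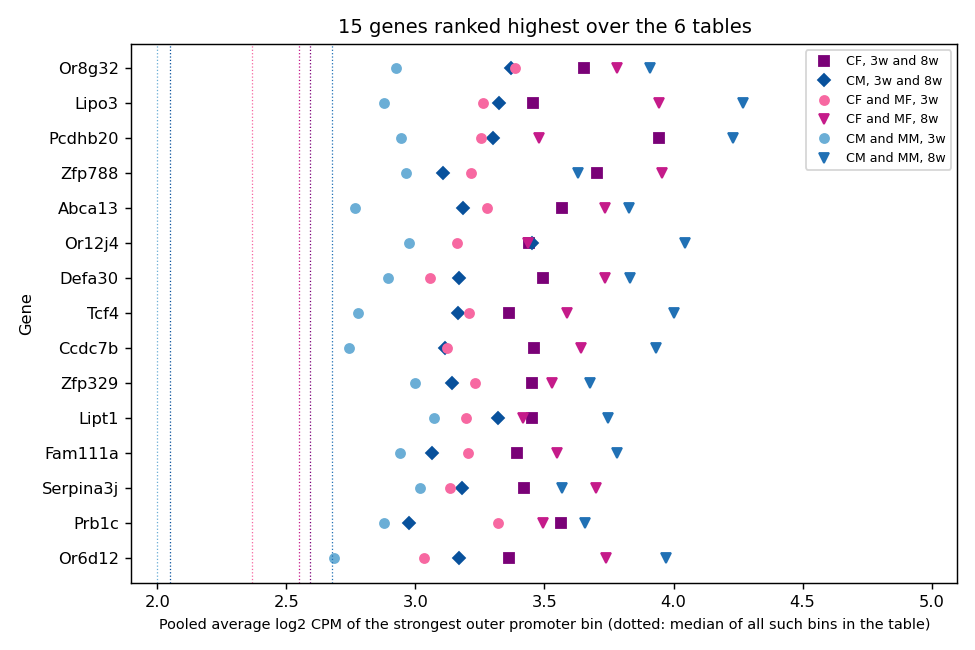
Pooled average log2 CPM (horizontal axis) of the strongest outer promoter bin of each of 15 genes (vertical axis) in the 6 tables (symbols); dotted lines are the medians of all outer promoter bins in each table. Every symbol lies right of its table's median, and levels of different tables are not comparable because the tables were scaled separately.

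A very strong bin of Sec14l2, which encodes a lipid-binding protein of the liver, was picked out after its values were seen. This bin, in an intron and 1497 bp downstream of the start site, had 5.42 log2 CPM in the CF table, 5.08 in the CM table, 5.44 in females at 8 weeks and 5.65 in males at 8 weeks. Both 3-week tables listed another bin of the same peak, with 2.08 log2 CPM in females and 2.00 in males. The CF and CM values are pooled over both ages, and a difference of the strong bin between ages was not analysed here.

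Gene families were compared by the median percentile of their outer promoter bins, beside 40.6 to 45.0 for all genes and with no test. Values of a named gene are those of its strongest bin in each table, which was not always the same bin. The clustered protocadherin genes, whose alternative first exons encode adhesion molecules of neurons, had the highest medians. A bin was listed for 51 of the 56 protocadherin genes in the tables (91.1%), against 49.3% of all genes, and their median percentiles were 95.8 in the CF, 98.2 in the CM, 87.9 and 93.8 in the female 3- and 8-week, and 91.4 and 97.2 in the male 3- and 8-week tables. They supplied 10 of the 42 outer promoter bins above percentile 99 in the CF table, 15 of 62 in the CM table, 6 of 53 and 6 of 37 in the female tables, and 5 of 50 and 12 of 37 in the male tables, although they were 0.281 to 0.536% of all outer promoter bins. Members were not alike: the mean percentile over tables was 99.2 for Pcdhb20 and 97.4 for Pcdhb16, but 72.5 for Pcdhb13. That of Pcdhb13 ranged from 15.6 to 97.3, from different bins. The strongest bins of Pcdhb20, Pcdhb16 and Pcdhb13 lay downstream of the start site, with their midpoint in a coding exon, in each table. These genes stand side by side in 1 locus and are not independent.

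Receptor genes of the nose also had high medians. Of 245 vomeronasal receptor genes, which detect pheromones, 27 had an outer promoter bin (11.0%), with medians of 66.6 to 83.9. Vmn2r44 ranked at 93.1 in the CF and 95.9 in the CM table, and Vmn1r113 was the lowest of the 10 members present in all tables, with a mean of 53.2. The list of olfactory receptor genes by their older symbols found 9 genes and no outer promoter bin, since the tables use current symbols. With current symbols, a search added after the data were seen, 121 of 701 genes had a bin (17.3%), with medians of 60.0 to 76.1. Few receptor genes were covered, but the bins listed were mostly in the upper part of the scale. Or6f2 was an exception, with a mean of 32.6.

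Zinc finger genes had medians of 53.2 to 61.8, and 194 of the 399 (48.6%) had an outer promoter bin, a share like that of all genes. Within the list Zfp788 and Zfp329 were at the top, and Zfp518b, with a mean of 17.7, was the lowest of the 50 members present in all tables. Lineage factors of other tissues had medians of 47.4 to 64.2 from 21 of 29 genes. Nkx2-5, a heart factor, had a mean of 71.4, Lhx2, a forebrain factor, 55.6, and T (brachyury), a mesoderm factor, 34.0. These 2 lists were above the medians of all genes in each of the 6 tables.

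**Figure D4:**
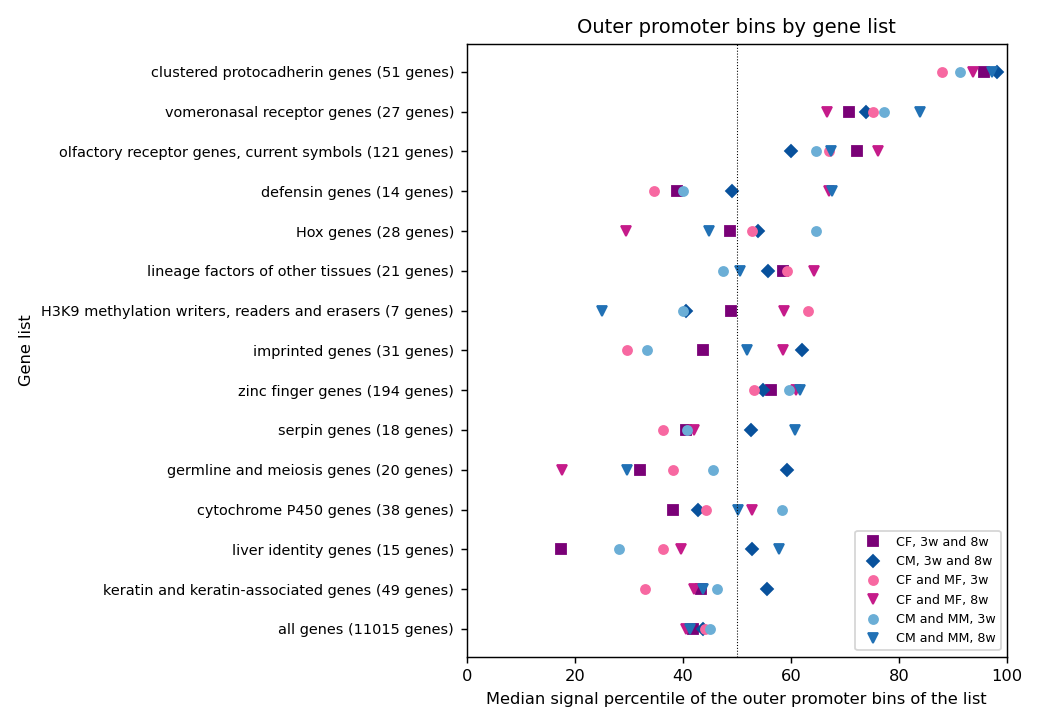
Median signal percentile (horizontal axis) of the outer promoter bins of each gene list (vertical axis, with the number of genes that had such a bin) in the 6 tables (symbols). Clustered protocadherin genes lie at 87.9 to 98.2, and all genes at 40.6 to 45.0; several lists spread widely over the tables.

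Lists tied to liver function did not keep 1 place on the scale. The median of liver identity genes, with bins at 15 of 27 genes, was 17.5 in the CF and 52.9 in the CM table, from 6 to 15 bins per table. Foxa2, a pioneer factor of hepatocytes, had the highest mean, 83.8, with percentiles of 90.9 in the CF and 90.4 in the CM table. Serpina1b, an alpha-1 antitrypsin gene, was listed in 3 tables, all male, at 77.5 to 87.1. Foxa3, also a hepatocyte factor, was listed in 2 tables, at 2.55 and 21.1. The mark in a bin beside a gene does not give the expression of that gene.

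Cytochrome P450 genes had outer promoter bins at 38 of 101 genes and medians of 38.1 to 58.5. Cyp1a1, an inducible enzyme of xenobiotic metabolism, ranked at 67.0 in the CF and 96.6 in the CM table from a coding exon bin. Cyp19a1, the aromatase, ranked at 7.85 and 46.4 in the CF and CM tables, from bins of different transcripts. Serpin genes had 18 of 59 genes and medians of 36.3 to 60.8, with Serpine3 at a mean of 88.3 and Serpina1a, another alpha-1 antitrypsin gene, at 30.0. These ranges overlap those of all genes.

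Developmental and imprinted genes were also spread. Hox genes, which pattern the body axis, had bins at 28 of 43 genes and medians of 29.5 to 64.7, with Hoxc10 at a mean of 68.0, Hoxb3 at 56.9 and Hoxc12 at 45.1. Imprinted genes had bins at 31 of 42 and medians of 29.6 to 62.1. Ndn, a paternally expressed imprinted gene, ranked at 87.6 in the CF and 98.97 in the CM table, but at 24.4 in males at 8 weeks from another bin. Gnas, an imprinted locus that encodes a G protein subunit, ranked at 99.8 and 99.7 in the CF and CM tables and at 21.7 to 78.8 in the other 4, again from other bins. Grb10, an imprinted growth inhibitor, had a mean of 58.8.

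Keratin and keratin-associated genes had bins at 49 of 100 genes and medians of 33.1 to 55.6, with Krt40 at a mean of 87.2, Krtap28-13 at 86.8 and Krt36 at 35.1. Germline and meiosis genes had bins at 20 of 46 genes and medians of 17.6 to 59.3. Boll, an RNA-binding protein of germ cells, was listed in 4 tables at 96.3 to 99.4, and Mov10l1, a helicase of the piRNA pathway, in 3 at 80.4 to 87.1, while Majin, a meiotic telomere anchor, was listed in 1 at 0.063. Defensin genes, a list added after the data were seen, had bins at 14 of 48 genes and medians of 34.6 to 67.6, with Defb7 at a mean of 97.3 and Defb28 at 46.6.

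Of 18 genes that write, read or erase methylation of H3K9, not only its trimethylation, 7 had an outer promoter bin (38.9%, beside 49.3% of all genes). Their medians were 25.0 to 63.1 from 4 to 10 bins per table. Kdm3b, an H3K9 demethylase, had a mean of 86.7 over 5 tables and was not listed in males at 8 weeks. Ehmt2, also known as G9a, an H3K9 methyltransferase, had 62.8 over 4 tables, and Atf7ip, a partner of SETDB1, 44.0 over 5. Of 17 liver cell type markers, 8 had an outer promoter bin in some table. Alb, Ttr and Cps1 of hepatocytes, Ptprc and Adgre1 of immune cells, Lyve1 of endothelium and Dcn, Lrat and Des of stellate cells had none. Hnf4a, a hepatocyte factor, had 8 bins over 4 tables at percentiles of 0.86 to 73.3. The tables hold no expression, so the labelled tissue could not be checked with these markers.

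More outer promoter bins were listed at 3 weeks than at 8 weeks. In females 10054 were listed at 3 weeks and 7274 at 8 weeks, a ratio of 1.38, and in males 12121 and 6824, a ratio of 1.78. The ratios were close to these for gene body bins, at 1.28 in females and 1.70 in males, and were 1.05 and 1.17 for inner promoter bins and 1.22 and 1.57 for all autosomal bins. Of the peaks behind outer promoter bins at 3 weeks, 68.1% in females and 57.0% in males were also listed at 8 weeks, beside 72.2 and 60.6% for all autosomal bins. In the other direction, 90.1% in females and 96.4% in males were also listed at 3 weeks, beside 88.1 and 94.9% for all autosomal bins. Outer promoter bins thus stayed close to the shares of all bins, and the shares also follow the lengths of the lists. Each of these tables joins the offspring of control and MO dams, and the number of bins listed also depends on filters that act on a whole table.

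Bins listed at identical coordinates in the 3- and 8-week tables of a sex were ranked at each age. In females 4119 outer promoter bins could be followed, with a median percentile of 61.7 at 3 weeks and 48.0 at 8 weeks, and a median difference (8 weeks minus 3 weeks) of -8.14 with quartiles of -27.7 and 7.07. In males 3978 bins had medians of 66.6 and 45.0, and a median difference of -14.7 with quartiles of -34.4 and 0.661. The median difference was negative on all 19 autosomes in both sexes. The same held for gene body bins, with -4.87 in females and -11.6 in males, and for intergenic bins, with -1.52 and -7.61. Inner promoter bins had median differences of 1.23 and 0.378. Since the 8-week tables list fewer bins, the bins were also ranked only among those listed at both ages, a comparison added after the data were seen. The median difference was then -4.02 in females and -3.74 in males for outer promoter bins, -1.27 and -1.62 for gene body bins, 0.807 and -0.226 for intergenic bins, and 5.64 and 11.3 for inner promoter bins. By this ranking the median of outer promoter bins was higher at 8 weeks on 1 autosome in females and 2 in males, and that of intergenic bins on 16 in females and 4 in males. The median over all autosomes was lower at 8 weeks for outer promoter bins and higher for inner ones by either ranking, but the size depended on the ranking. These are shifts in rank, not in level. The log2 CPM of the same outer promoter bins was higher at 8 weeks in both sexes. Medians at 3 and 8 weeks were 2.48 and 2.60 in females and 2.16 and 2.70 in males, with median differences of 0.15 and 0.57. The tables of the ages were scaled separately and the 8-week ones list fewer bins, so these levels are not comparable.

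**Figure D5:**
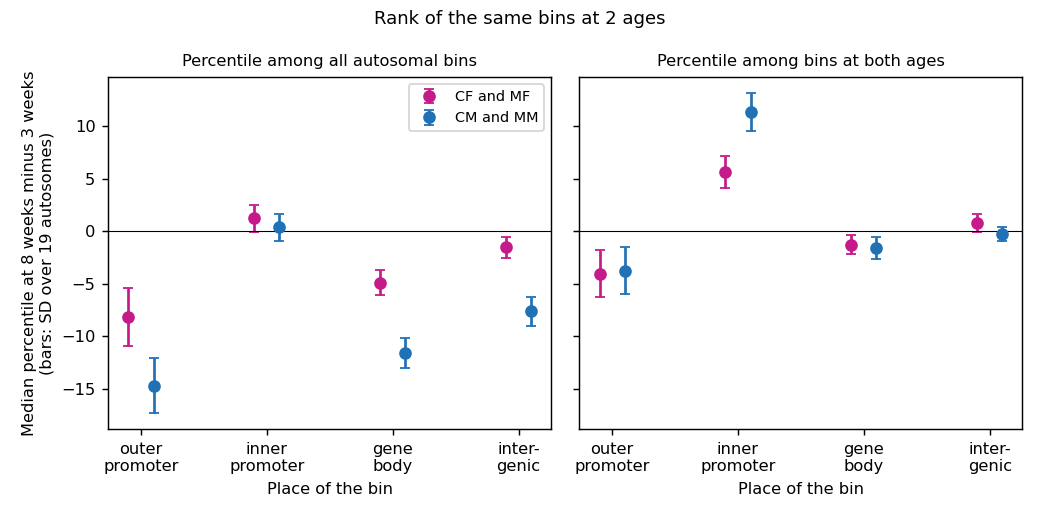
Median difference in signal percentile, 8 weeks minus 3 weeks (vertical axis), of bins that kept their coordinates between ages, by place (horizontal axis) in females and males; bars are the SD over 19 autosomes. Left, percentiles among all autosomal bins; right, among bins listed at both ages. Outer promoter bins are below 0 in both panels, at -8.14 and -14.7 on the left and at -4.02 and -3.74 on the right.

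The direction could be compared between sexes for 1363 outer promoter bins that overlapped by at least 50%. Of these, 642 (47.1%) ranked lower at 8 weeks in both sexes, 194 (14.2%) higher in both, and 527 (38.7%) differed in direction or stayed equal in 1 sex, while 59.4% were lower in females and 73.4% in males taken alone. These directions depended on the ranking. Ranked only among bins listed at both ages, 437 (32.1%) were lower in both sexes, 325 (23.8%) higher in both and 601 (44.1%) neither, with 52.2% lower in females and 56.0% in males. Spearman's rho between females and males was 0.36 for the percentile at 3 weeks, 0.57 at 8 weeks and 0.21 for the difference (0.19 when ranked among bins listed at both ages). The sexes share no library, but they share sequence and annotation, and these values are descriptive.

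The bins with the largest rise in rank in both sexes were near Rxfp2, Pam, Srgap2, Pclo and Col4a1. The bin 1175 bp downstream of a start site of Rxfp2, the receptor for insulin-like peptide 3, ranked at 34.8 at 3 weeks and 93.2 at 8 weeks in females, and at 1.61 and 74.9 in males. The bin 1176 bp upstream of Pam, an enzyme that amidates peptide hormones, ranked at 10.8 and 91.6 in females and at 40.9 and 95.6 in males. Col4a1, a collagen of basement membranes, went from 10.2 to 75.7 in females and from 32.3 to 69.7 in males. Srgap2 and Pclo, which act in neurons, rose by 55.8 and 41.5 percentile points in females and by 43.3 and 59.5 in males. With ranks among bins listed at both ages, all 5 remained higher at 8 weeks, by 49.9 to 84.3 points.

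The bins with the largest fall in rank in both sexes were near Fancd2os, Epb41l1, Srgap1, Trcg1 and Mir8096. Fancd2os, a gene on the strand opposite to Fancd2, went from 86.1 to 20.1 in females and from 86.3 to 25.0 in males. Epb41l1, a membrane skeleton protein, went from 95.8 to 35.0 and from 85.0 to 28.0, and Srgap1, a regulator of cell migration, from 72.7 to 0.776 and from 81.3 to 24.7. Trcg1, a gene of taste receptor cells, went from 83.8 to 27.5 and from 83.3 to 15.0, and the bin near the microRNA gene Mir8096 from 80.7 to 25.0 and from 77.9 to 17.4. With ranks among bins listed at both ages, all 5 remained lower at 8 weeks, by 52.4 to 67.1 points in females and 45.8 to 57.3 in males. Their log2 CPM was lower at 8 weeks in females, as for Fancd2os with 2.71 and 2.40, but higher in males, where Fancd2os had 2.38 and 2.56, Epb41l1 2.36 and 2.58, Srgap1 2.31 and 2.56, Trcg1 2.34 and 2.49, and Mir8096 2.27 and 2.505. These 10 genes were selected on the difference in rank, and whether that difference exceeds the spread between livers is not known from pooled values.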

How the data were processed

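Per the study's methods and processing notes, the authors called broad H3K9me3 peaks with MACS2 on mm10 (GRCm38), merged them per sex, cut long peaks into bins, counted reads and tested each contrast with edgeR. The deposited average level is log2 CPM over both groups of a table, as computed by the authors. The deposited fold changes and p-values are the authors' own comparisons and were not used. Counts per library were not analysed here. The study states a rough sequencing depth for its libraries as a whole, not for each. No test between groups was made. Percentiles were ranks of log2 CPM among autosomal bins of a table. GC content, CpG ratio and soft-masked share were computed from GRCm38. Exons and territories came from GENCODE M21. Python 3.11.15, pandas 2.3.3 and scipy 1.17.1 were used, and the functions were tested on simulated data. Named genes were the 15 highest by mean percentile over 6 tables (clone and predicted names left out), the 5 highest with these kept, the 2 highest and the lowest of each list (among members in all tables, or in any table where fewer than 3 were in all), the 5 with most bins, and 5 each with the largest rise and fall by age in both sexes. Members and lists were chosen with earlier results of these data known. Alternatives varied the distance, chromosomes, peak and bin lengths, bins per gene, signal and shared coordinates.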

Additional observations from a re-analysis of the deposited data

How the results depend on the processing

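Of autosomal bins in the CF and CM tables, outer promoter bins (7.15 and 7.35%) were 5.32 and 5.44% with distances above 1500 bp, 3.49 and 3.58% above 2000 bp, 5.32 and 5.80% among peaks of 1 bin, 8.08 and 8.22% among full-length bins, 5.89 and 6.31% among bins above the median signal, 5.47 and 5.45% among bins at the same coordinates in all 3 tables of a sex, 5.07 and 5.55% with peaks that stayed over 1000 bp from the start site (added after seeing the data), and, as the share of genes whose nearest bin was outer, 11.3 and 11.0%. Adding X and Y gave 6.92% in the CF table. The median percentile (41.9 and 43.7) was 59.7 and 68.6 for bins at the same coordinates and, by construction, 70.7 and 71.2 above the median signal. With peaks of 1 bin it was 47.8 in the CF table. At the same coordinates the median was above the middle of the scale in 5 of the 6 tables and below it, at 46.2, in males at 8 weeks. Inner promoter, gene body and intergenic bins listed at both ages also had medians above the middle at 3 weeks in both sexes. With peaks of 1 bin the outer promoter median was above the middle in females at 3 weeks alone, at 51.2. The upstream share (45.9 and 47.0%) was 52.7 and 51.5% with peaks of 1 bin, 43.9 and 44.9% with full-length bins, 49.6 and 49.8% at the same coordinates, and 50.04 and 50.4% with peaks that stayed over 1000 bp away. Median GC content (54.6 and 53.9%) was 55.7 and 55.3% above the median signal, 54.9% at the same coordinates and 54.2% with peaks of 1 bin in the CM table, and 54.1% with peaks over 1000 bp away in the CF table. The masked share (8.78 and 9.41%) was 9.89 and 10.9% with peaks of 1 bin. The age difference (-8.14 in females, -14.7 in males) was -4.02 and -3.74 among bins listed at both ages. The cause was not tested. No paired analysis was possible because the tables hold no values per library, and for the same reason no library could be left out. The exact depth of each library was not analysed here, which limits what weak bins can show.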
